A study of Mus musculus with 8 samples.

Results

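The genes described here are 10 genes that code for transcription factors that pattern the mesoderm and the limb in the embryo: the homeobox genes Meox1, Meox2, Pitx1 and Shox2 and the T-box genes Tbx2, Tbx3, Tbx4, Tbx5, Tbx15 and Tbx18. They were found by symbol among the 53465 genes of the count table. The set was chosen with the normoxia-hypoxia log2 changes of these same samples known, so the changes of the 10 genes are given as a description and without a test. Mesenchymal stem cells (MSCs), stromal cells able to form bone, fat and cartilage, which the labels call bone-marrow MSCs, were grown from collagenase-treated hind limb bone chips of male wild-type C57BL/6N mice aged 3-5 months. The groups compared were MSCs cultured in hypoxia (2% O2, 4 samples) and in normoxia (21% O2, 4 samples). Cells of both groups had grown out of the bone chips in hypoxia, were sorted as CD45-/Ter-119-/Sca-1+/CD140a+ and were then divided between the conditions for a further week, whereas the labels name only the culture condition and a sort on day 12. No sample carried a genetic change or a drug, and the sorted population was a mixed primary culture and not a clone.

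RNA was measured by single-end RNA sequencing and counted per gene. Total counts were 25132141 in hypoxia replicate 1 and between 12898291 and 13433824 in the other 7 samples, so that a floor of 3 counts for detection equals 0.119 to 0.233 CPM, which are counts scaled to a common library size. The floor covers counting error only. The stromal markers were present: Pdgfra (CD140a) had 1928 to 4011 counts and Ly6a (Sca-1) 4636 to 11995. All 6 blood and macrophage markers were also detected, with a summed level of 467 to 922 CPM in hypoxia and 580 to 1078 CPM in normoxia, and Ptprc, which codes for CD45, had 140 to 263 counts. Of the endothelial markers Emcn had 0 counts in every sample and the list summed to at most 2.65 CPM. The erythroid and epidermal lists summed to at most 0.231 CPM.

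Homeobox and T-box proteins bind DNA through the homeodomain and the T-box domain and switch other genes on or off. Meox1 and Meox2 act in the somites, the paired blocks of mesoderm that give rise to vertebrae and skeletal muscle. Tbx5 is the factor of the forelimb bud, and Tbx4 that of the hindlimb bud, where Pitx1 acts upstream of it. Tbx15, Tbx18 and Shox2 take part in the growth of the limb skeleton and the shoulder girdle, and Tbx2 and Tbx3 act largely as repressors, in the limb and elsewhere. Adult skeletal stromal cells keep part of the positional programme of the region of the body they come from.

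Several of the 10 genes are close relatives, and the counts depend on telling them apart. For 3 related pairs of T-box genes, the coding stretch of 90 bases in which both genes are most alike, without gaps, is printed from the GENCODE M21 transcripts (GRCm38), 5′ to 3′ on the coding strand. Capitals mark the bases at which the pair differs. Each stretch crosses a splice junction, and the coordinates include the intron between.

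Tbx4 and Tbx5 shared 79 of 90 bases, across the junction of exons 6 and 7 in both genes (Tbx4 chr11:85911197-85911962, Tbx5 chr5:119845055-119853555, both plus strand).
Tbx4: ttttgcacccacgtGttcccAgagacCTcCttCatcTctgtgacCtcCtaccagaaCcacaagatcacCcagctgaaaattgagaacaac
Tbx5: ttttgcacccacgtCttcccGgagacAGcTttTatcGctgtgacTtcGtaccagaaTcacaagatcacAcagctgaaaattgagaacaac

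Tbx15 and Tbx18 also shared 79 of 90 bases, across the junction of exons 3 and 4 (Tbx15 chr3:99313080-99314798, plus strand, and Tbx18 chr9:87724419-87727398, minus strand).
Tbx15: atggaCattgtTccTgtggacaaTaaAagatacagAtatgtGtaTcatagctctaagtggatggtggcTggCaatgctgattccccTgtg
Tbx18: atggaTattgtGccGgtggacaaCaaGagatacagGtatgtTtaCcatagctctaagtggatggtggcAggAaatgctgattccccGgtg

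Tbx2 and Tbx3 shared 77 of 90 bases, across the junction of exons 1 and 2 (Tbx2 chr11:85833422-85834629, Tbx3 chr5:119672325-119674035, both plus strand).
Tbx2: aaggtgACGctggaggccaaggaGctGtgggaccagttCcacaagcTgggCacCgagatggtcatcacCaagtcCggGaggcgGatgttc
Tbx3: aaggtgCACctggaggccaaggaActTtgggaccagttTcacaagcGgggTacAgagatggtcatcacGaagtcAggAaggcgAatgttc

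Over whole transcripts, the longest run of identical bases was 12 for Meox1 with Meox2, 14 for Tbx2 with Tbx3, and 23 for both Tbx4 with Tbx5 and Tbx15 with Tbx18, which was also the longest among all pairs of the 10 genes. The related genes therefore differed within every longer stretch of sequence.

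Meox1 had the largest difference between the oxygen conditions among the 10 genes. Meox1 (ENSMUSG00000001493, chr11:101877510-101894374) had 407, 525, 366 and 407 counts in hypoxia replicates 1 to 4 and 62, 147, 116 and 137 counts in normoxia replicates 1 to 4. Scaled to library size, these were 17.0, 42.1, 28.6 and 31.4 CPM in hypoxia and 4.60, 10.6, 8.37 and 10.3 CPM in normoxia. The lowest hypoxia sample lay above the highest normoxia sample, and within each group replicate 1 was the lowest. The hypoxia mean was 29.8 ± 10.3 CPM, against 8.47 ± 2.76 CPM in normoxia (SD, n = 4 per group). On the log2 scale the change from hypoxia to normoxia was -1.79 (SE 0.28, 95% interval -2.47 to -1.10), which corresponds to a 3.45-fold lower level in normoxia, or 29.0% of the hypoxia level.

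The difference in Meox1 was of similar size in each of the 4 pairs of equally numbered samples. Normoxia minus hypoxia was -1.84, -1.97, -1.75 and -1.58 on the log2 scale for numbers 1 to 4, with an SD of 0.16, whereas the SD between samples of a group was 0.54 in both conditions. Ordered from the most negative log2 change, Meox1 was in place 15 of the 14369 genes that passed the filter on low counts. Meox1 was the only one of the 10 genes past the threshold of an adjusted p-value of 0.05 in the fit without pairing (limma-trend). In that fit 34.6% of all tested genes passed, 16.5% lower and 18.0% higher in normoxia. All 10 genes passed the filter. Meox1 was also the only one whose groups did not overlap, as was the case for 32.6% of all tested genes. Since the set was chosen on this contrast, nothing is read from these counts.

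**Figure D1:**
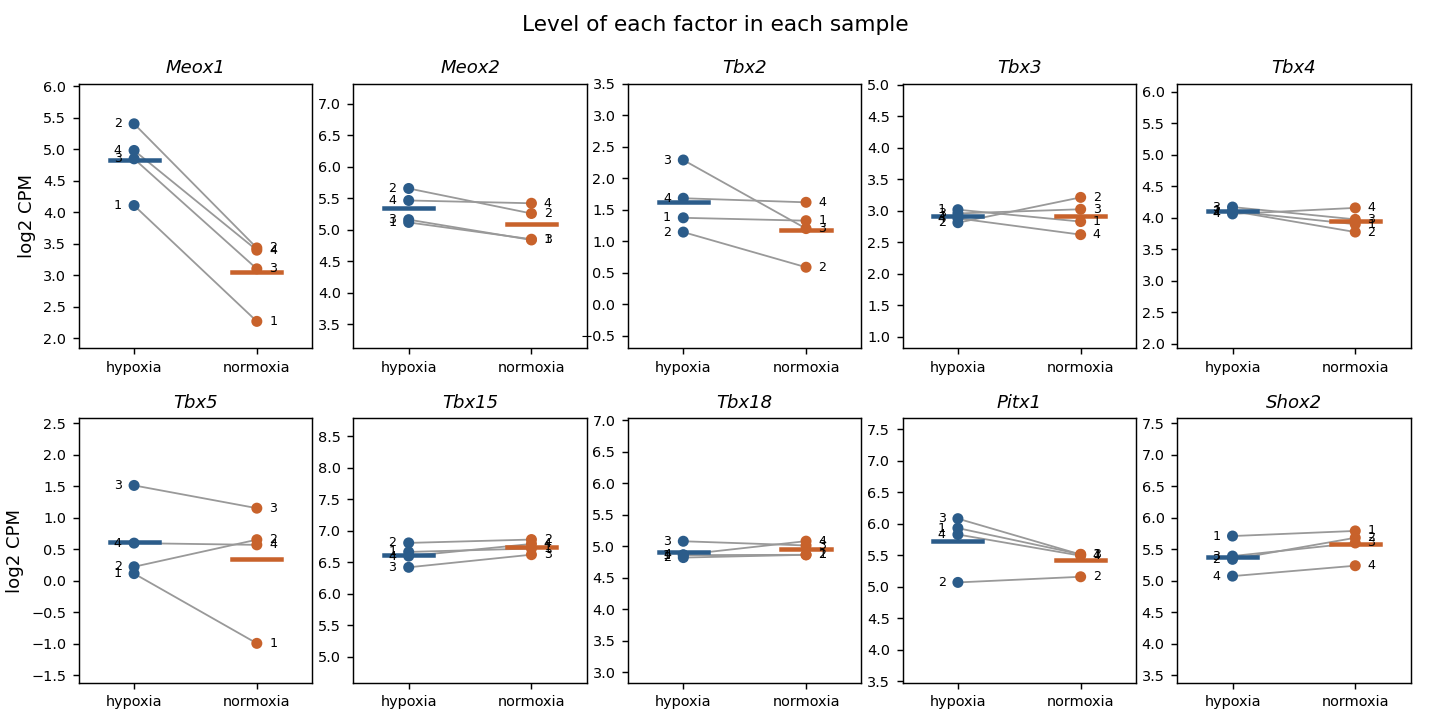
Log2 CPM of each of the 10 genes (vertical axes, all spanning the same number of log2 units) in hypoxia and normoxia; points are samples, digits are replicate numbers, grey lines join equal numbers and bars are means of 4 samples. Meox1 falls along every line, from a mean of 4.83 to 3.05, while the groups of the other 9 genes overlap.

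Meox2 (ENSMUSG00000036144, chr12:37108540-37179534), the relative of Meox1, was expressed at a comparable level in hypoxia but differed much less between the conditions. It had 34.4, 50.1, 35.5 and 43.9 CPM in hypoxia replicates 1 to 4 and 28.6, 38.0, 28.4 and 42.6 CPM in normoxia. The groups overlapped, while each normoxia sample was below the hypoxia sample of its number, by 0.044 to 0.40 on the log2 scale. The log2 change was -0.26 (SE 0.15, 95% interval -0.62 to 0.11), and -0.16 without hypoxia replicate 2. Per length of exon, the Meox2 level was 1.12 to 1.91 times that of Meox1 in hypoxia and 3.20 to 5.86 times that of Meox1 in normoxia. The ranges of this ratio did not overlap between the conditions.

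With the replicate number as a block in the fit, which compares samples within pairs, 4 of the 10 genes passed the threshold, against 46.0% of all tested genes. Meox1, Meox2 and Pitx1 were then lower in normoxia and Shox2 was higher. With a further correction for GC content and transcript length, Pitx1 no longer passed and the other 3 did. The log2 changes with this correction were -1.71 for Meox1, -0.35 for Meox2, 0.18 for Shox2 and -0.055 for Pitx1.

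Pitx1 (ENSMUSG00000021506, chr13:55825051-55836192), a homeobox factor of the hindlimb and the pituitary, varied most between hypoxia samples among the well expressed factors after Meox1. Its levels were 60.7, 33.3, 67.4 and 56.6 CPM in hypoxia and 45.4, 35.4, 45.3 and 44.8 CPM in normoxia. Replicate 2 was the lowest in both groups, and the groups overlapped only through it: each of the other 3 hypoxia samples lay above all 4 normoxia samples. The log2 change was -0.31 (SE 0.18, 95% interval -0.74 to 0.13), and it depended on single samples. Without hypoxia replicate 2 it was -0.53 and past the threshold, without hypoxia replicate 3 it was -0.19, and without normoxia replicate 2 it was -0.23. Pitx1 transcripts have a GC content of 65.8%, the highest of the 10 genes, against a median of 49.7% over the tested genes.

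Shox2 (ENSMUSG00000027833, chr3:66971727-66981771), needed for growth of the proximal limb bones, was higher in normoxia in each of the 4 pairs. Levels were 52.2, 40.4, 41.8 and 33.5 CPM in hypoxia and 55.2, 51.2, 48.4 and 37.6 CPM in normoxia. Replicate 1 was the highest and replicate 4 the lowest in both groups. On the log2 scale the SD between samples was 0.26 in hypoxia and 0.24 in normoxia, against 0.11 for the differences within pairs. The fitted log2 change was 0.20 (SE 0.14, 95% interval -0.13 to 0.53), and the 4 differences within pairs ran from 0.081 to 0.34. The change was 0.097 without hypoxia replicate 4, 0.12 without normoxia replicate 1, and 0.31 without hypoxia replicate 1. Shox2 overlaps Rsrc1, a splicing factor gene on the opposite strand with 409 to 942 counts per sample, which was also higher in normoxia (log2 change 0.45, adjusted p = 0.00103, limma-trend). Whether the counting used strand is not stated, so reads from the shared stretch of these 2 genes cannot be told apart. The other genes annotated over the 10 factors had at most 12 counts in any sample.

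Meox2 and Shox2 passed in opposite directions in both paired fits, and their promoters are therefore shown. RefSeq (GRCm38.p6) windows were matched for 4 of the 10 genes, namely Meox2, Tbx4, Tbx18 and Shox2. Printed are the 250 bases before the start of Meox2 (chr12:37108290-37108539, plus strand) and of Shox2 (chr3:66981772-66982021, minus strand), 5′ to 3′ on the gene's strand. Capitals mark matches to any of the motifs, which were searched on both strands. The site of the hypoxia-inducible factors was searched by its core ACGTG, and the box bound by the general transcription machinery by the letters TATAAA. The site of the factor NF-Y was searched as CCAAT, and the core to which many homeodomain proteins bind was searched as TAATTA. The site of single T-box proteins was searched by the letters GGTGTGA, a shortened form of the consensus.
Meox2: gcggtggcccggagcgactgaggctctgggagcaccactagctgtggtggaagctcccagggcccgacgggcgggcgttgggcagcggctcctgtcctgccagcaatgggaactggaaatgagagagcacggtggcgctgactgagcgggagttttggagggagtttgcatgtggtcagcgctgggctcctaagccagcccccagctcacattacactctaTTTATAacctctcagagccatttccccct
Shox2: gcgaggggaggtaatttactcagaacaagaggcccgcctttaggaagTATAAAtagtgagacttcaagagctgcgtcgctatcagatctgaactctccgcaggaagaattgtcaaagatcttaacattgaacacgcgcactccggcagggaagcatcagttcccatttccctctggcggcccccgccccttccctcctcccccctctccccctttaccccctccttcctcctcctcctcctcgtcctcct

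The letters TATAAA stood in 3 of the 4 windows and in 12.4% of the 32851 windows of the same length in the RefSeq table. In Meox2 they began 29 bases before the start, on the opposite strand, in Tbx4 85 bases before it, on the opposite strand, and in Shox2 203 bases before it, on the gene's own strand. The Tbx4 window (chr11:85896515-85896764) precedes a RefSeq start that lies inside the gene as annotated in GENCODE, and not its 5′ end. The NF-Y motif stood in the Tbx18 window alone, against 33.8% of all windows. The hypoxia-inducible factor core, the homeodomain core and the T-box motif were not found in these 4 windows, and were found in 16.6%, 4.84% and 3.33% of all windows. The motifs do not overlap one another in the 4 windows, and a match is a description of the letters only.

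Tbx4 (ENSMUSG00000000094, chr11:85886422-85916097), the hindlimb T-box factor, was the steadiest of the 10 genes in hypoxia. Its levels were 17.0, 17.0, 17.8 and 16.5 CPM in hypoxia, a coefficient of variation of 3.18%, and 14.7, 13.5, 15.5 and 17.6 CPM in normoxia. Of the normoxia samples 3 lay below all hypoxia samples and replicate 4 lay among them. Its log2 change was -0.16 (SE 0.096, 95% interval -0.39 to 0.075), with 3 of 4 pairs lower in normoxia.

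Tbx5 (ENSMUSG00000018263, chr5:119832668-119885219), its forelimb counterpart, was close to the limit of what the depth can show. It had 21, 12, 34 and 17 counts in hypoxia and 4, 19, 28 and 17 counts in normoxia. The groups overlapped, at 0.878 to 2.65 CPM in hypoxia and 0.297 to 2.02 CPM in normoxia, and replicate 3 was the highest in both. The log2 change of -0.27 (SE 0.44, 95% interval -1.34 to 0.80) turned sign without either of 2 samples, to 0.17 without normoxia replicate 1 and to 0.033 without hypoxia replicate 3. The interval spans changes in both directions, and no difference in Tbx5 between the conditions was detectable with these counts and this spread between samples.

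In every sample the hindlimb factors exceeded Tbx5. Per length of exon, Tbx4 was 9.22 to 68.0 times and Pitx1 39.5 to 269 times the level of Tbx5, and the highest ratio of each was in normoxia replicate 1, where Tbx5 had 4 counts. The bones were those of the hind limb.

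Tbx2 and Tbx3, which can repress cell cycle inhibitors, were expressed at low levels. Tbx2 (ENSMUSG00000000093, chr11:85832551-85841948) had 2.38, 2.01, 4.68 and 3.00 CPM in hypoxia and 2.30, 1.30, 2.09 and 2.86 CPM in normoxia, from 18 to 60 counts. Each normoxia sample was below the hypoxia sample of its number, yet the groups overlapped, and 2 of the 4 differences were under 0.1 on the log2 scale. The log2 change was -0.44 (SE 0.28, 95% interval -1.11 to 0.24), and without hypoxia replicate 3, the highest sample, it was -0.22.

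Tbx3 (ENSMUSG00000018604, chr5:119670669-119684724) had 7.90, 6.82, 7.57 and 7.17 CPM in hypoxia and 6.91, 9.08, 7.94 and 5.95 CPM in normoxia. The normoxia samples lay on both sides of the hypoxia samples, with 2 pairs higher and 2 lower. A log2 change of 0.0051 was fitted (SE 0.14, 95% interval -0.34 to 0.35), so that a change of more than 0.35 in either direction lies outside the interval. Tbx2 lies 44.5 kb from Tbx4 on chromosome 11, and Tbx3 lies 148 kb from Tbx5 on chromosome 5, an arrangement of neighbouring T-box genes known from vertebrate genomes.

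Tbx15 (ENSMUSG00000027868, chr3:99240381-99354259), a factor of limb and skeletal growth, had the highest level per length of exon in 7 of the 8 samples, with Pitx1 above it in hypoxia replicate 3. It had 101, 112, 85.3 and 96.5 CPM in hypoxia and 105, 116, 98.1 and 110 CPM in normoxia. Each normoxia sample was above the hypoxia sample of its number, by 0.053 to 0.20 on the log2 scale, and the groups overlapped. Their means differed by a log2 change of 0.13 (SE 0.082, 95% interval -0.077 to 0.33), and 0.057 without hypoxia replicate 3.

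Tbx18 (ENSMUSG00000032419, chr9:87702800-87731260), related to Tbx15 and active in the somites and the heart, had 28.8, 28.1, 33.6 and 29.0 CPM in hypoxia and 29.0, 29.0, 32.1 and 33.7 CPM in normoxia. Both groups covered the same range. The log2 change was 0.050 (SE 0.083, 95% interval -0.15 to 0.25), with 3 of 4 pairs higher, and it was -0.058 after the correction for GC content and length. The ratio of Tbx15 to Tbx18 per length was 3.19 to 5.01 in hypoxia and 3.85 to 5.04 in normoxia.

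**Figure D2:**
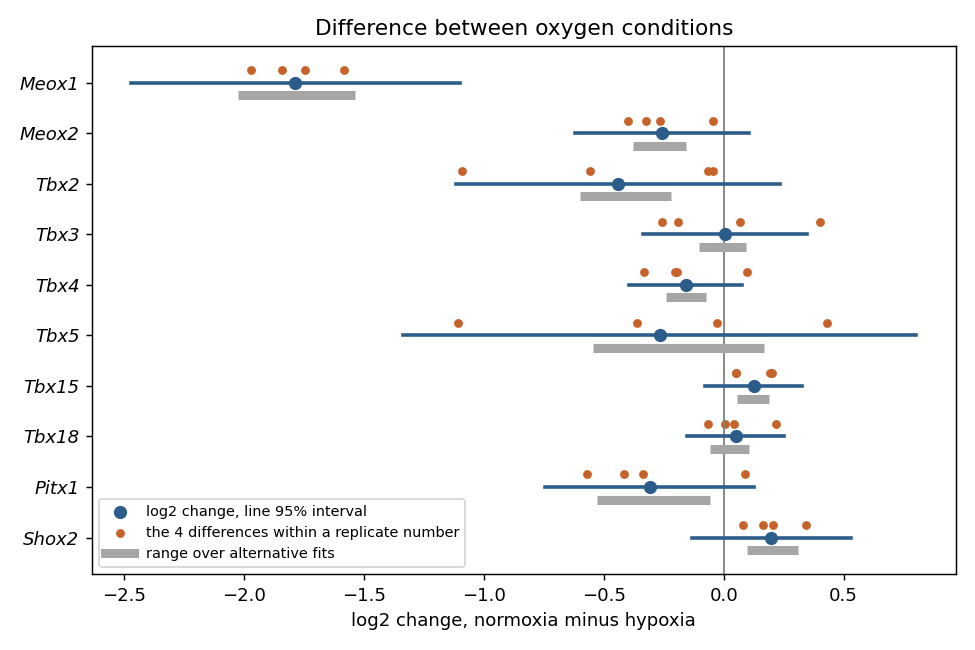
Log2 change from hypoxia to normoxia of the 10 genes (horizontal axis); blue points and lines are the change and its 95% interval, orange points the 4 differences within replicate numbers, and grey bars the range over 19 alternative fits. The Meox1 interval, -2.47 to -1.10, is the only one of the 10 that does not reach 0.

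Levels could be compared between genes only per length, as CPM per kb of exon, and by this measure the 10 genes spanned a wide range. Means over all 8 samples were 27.5 for Tbx15, 18.3 for Pitx1, 16.0 for Meox2, 13.6 for Shox2, 8.58 for Meox1, 6.44 for Tbx18, 4.76 for Tbx4, 1.12 for Tbx3, 0.711 for Tbx2 and 0.288 for Tbx5. Between neighbours in this order the ranges over samples overlapped, except between Tbx18 and Tbx4 and between Tbx4 and Tbx3. The place of Meox1 in the order depended on the condition, with a mean of 13.4 ± 4.63 under hypoxia against 3.80 ± 1.24 under normoxia (SD, n = 4 per group). It was above Tbx18 in 4 of the 8 samples, which were the 4 hypoxia samples. The summed level of the 10 genes was 319 to 332 CPM in hypoxia and 288 to 307 CPM in normoxia.

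**Figure D3:**
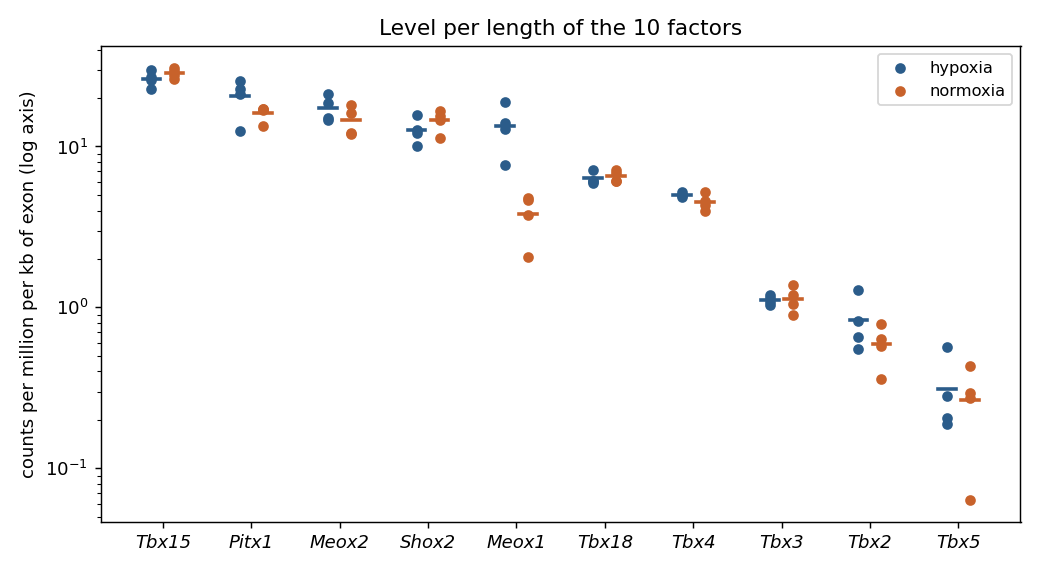
Level per length of the 10 genes in CPM per kb of exon (vertical log axis), ordered by the mean over 8 samples; points are samples, short lines are group means, blue is hypoxia and orange normoxia. Levels run from 27.5 for Tbx15 to 0.288 for Tbx5, and Meox1 is the one gene whose blue and orange points are apart.

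Genes that work beside these factors were examined in 5 lists holding 103 genes in all, of which 65 passed the filter. In the fit without pairing 20 of the 65 passed the threshold, 6 higher and 14 lower in normoxia, and their share is to be read against the 34.6% of all tested genes. The median log2 change of the 65 genes was -0.10, against 0.0049 over all tested genes. With the replicate block 33 of the 65 passed, 8 higher and 25 lower, against 46.0% of all tested genes. With the block and the correction for GC content and length 32 passed, 14 higher and 18 lower, so that the balance of directions depended on the correction.

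Of the 11 other T-box genes, Mga alone passed the filter, a gene coding for a large repressor that carries a T-box and pairs with Max. It had 30.5 to 42.2 CPM in hypoxia and 47.7 to 60.3 CPM in normoxia, without overlap, and rose by 0.54 on the log2 scale (SE 0.10, adjusted p = 0.00174, limma-trend). T, Eomes, Tbx1 and Tbx6, which act in early mesoderm and the pharyngeal arches, had at most 8 counts in any sample.

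Of 32 other homeobox factors of limb and mesenchyme, 27 passed the filter, with a median log2 change of -0.19. Of the 27, 7 were lower in normoxia and none higher, against 34.6% of all tested genes past the threshold, 16.5% of them lower and 18.0% higher as shares of all tested genes. Six2 fell by 0.65 on the log2 scale (adjusted p = 0.0356, limma-trend), and by 0.41 with the correction for GC content and length, where it passed only with the block. Pbx3 fell by 0.29, and by 0.52 with that correction, and Prrx2 and Pbx2 by 0.20 each. The Pbx proteins are partners that bind DNA together with other homeodomain proteins. The changes of Prrx2 and Pbx2 were small, and the Prrx2 change had the opposite sign, 0.086, after the correction for GC content and length. Prrx1, the most expressed of these genes with 4498 to 9657 counts, had a log2 change of -0.072 (adjusted p = 0.537, limma-trend). Each of the 7 calls was lost when any of 3 to 6 of the 8 samples was left out in turn, Prrx2 in 3 cases and Pbx2 in 6, with adjusted p-values of up to 0.137 (limma-trend) where lost. With the replicate block 13 of the 27 passed, 12 of them lower, against 46.0% of all tested genes in either direction.

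Of 26 other factors of paraxial and lateral mesoderm, 15 passed the filter and Osr1 alone passed the threshold. Osr1, a zinc finger factor of limb connective tissue, had 29.8 to 44.5 CPM in hypoxia and 20.5 to 30.2 CPM in normoxia and fell by 0.52 on the log2 scale (adjusted p = 0.0141, limma-trend), with an overlap through hypoxia replicate 1. The call was lost with the correction for GC content and length alone. With the block 5 of the 15 passed, 4 of them lower.

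The signals of limb outgrowth moved in both directions. Of 26 genes 16 passed the filter, and 3 were higher and 4 lower in normoxia, against 34.6% of all tested genes in either direction. Grem1, an antagonist of bone morphogenetic proteins, had 18.6 to 29.0 CPM in hypoxia and 49.6 to 76.6 CPM in normoxia and rose by 1.26 on the log2 scale (SE 0.15, adjusted p = 0.000132, limma-trend). Ptch1, the receptor of hedgehog ligands, rose by 0.49 (adjusted p = 0.0125) and Smo, the transducer that Ptch1 restrains, fell by 0.42 (adjusted p = 0.000478, both limma-trend). Cyp26b1, which degrades retinoic acid, fell by 0.79, the retinoic acid receptor gene Rarg by 0.34 and the signal Wnt5a by 0.33. Bmp4 rose by 0.33. Each of these 7 genes passed whichever sample was left out, and Rarg alone of them did not pass with the correction for GC content and length without the block. With the replicate block 10 of the 16 genes passed, 3 higher and 7 lower, against 46.0% of all tested genes.

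Of 13 genes described in other tissues as targets of the 10 factors, 10 passed the filter, and 3 were higher and 2 lower in normoxia, against 34.6% of all tested genes in either direction. With the replicate block 6 of the 10 passed, 3 higher and 3 lower, against 46.0% of all tested genes. Gja1, which codes for the gap junction protein connexin 43 and is known as a target repressed by Tbx2, had 221 to 330 CPM in hypoxia and 406 to 646 CPM in normoxia. It rose by 0.92 on the log2 scale (SE 0.15, adjusted p = 0.000763, limma-trend). Cdkn2a, a cell cycle inhibitor described as repressed by Tbx2 and Tbx3, fell by 0.49 (adjusted p = 0.00179), and Cdkn1a, described as activated by Meox factors and repressed by Tbx2, rose by 0.20 (adjusted p = 0.0409, both limma-trend). Bmp4 is also in this list. Cdkn1a no longer passed when any of 6 of the 8 samples was left out (log2 changes 0.17 to 0.21 in those cases). Gja1 and Cdkn2a passed whichever sample was left out, but the change of Cdkn2a shrank to -0.19 with the correction for GC content and length, which ended its call without the block.

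**Figure D4:**
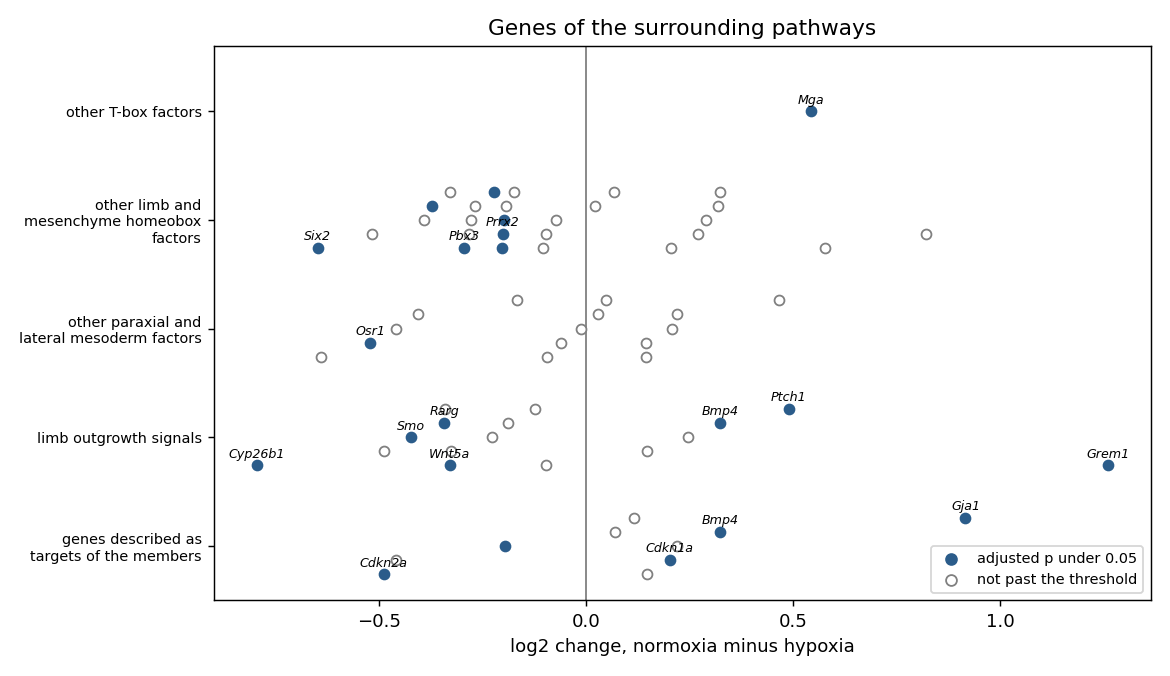
Log2 change from hypoxia to normoxia (horizontal axis) of the tested genes in the 5 lists (rows); filled points passed an adjusted p-value of 0.05 and open points did not, and vertical offsets within a row only separate the points. The filled points of the homeobox row all lie left of 0, although Prrx2 moves to 0.086 with the correction for GC content and length, and Grem1 lies farthest right at 1.26.

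The nearest protein-coding genes on either side of each of the 10 genes were compared as a view of their chromosomal surroundings. Taken were genes outside the 10 that passed the filter and did not overlap a factor, which leaves out Rsrc1 at Shox2. These were 16 genes, 4 of which neighbour a pair of the factors, and 8 of the 16 passed the threshold, 5 higher and 3 lower in normoxia, against 34.6% of all tested genes. Dusp3, 76.8 kb from Meox1, rose by 0.48 on the log2 scale (adjusted p = 0.00217, limma-trend), opposite in sign to the change of Meox1, and Etv4, 92.1 kb away on the other side, had a log2 change of -0.42 (adjusted p = 0.225, limma-trend). Agmo, 62.1 kb from Meox2, fell by 0.72 (adjusted p = 0.00922, limma-trend). Nt5e, which codes for the stromal surface protein CD73, and Cep162 lie 596 kb and 447 kb from Tbx18 and rose by 0.59 and 0.60. Wdr3, 784 kb from Tbx15, rose by 0.48, while Wars2, 1.2 kb from Tbx15 on the other side, had a log2 change of -0.23 (adjusted p = 0.130, limma-trend). Rbm19, 231 kb from Tbx5, rose by 0.34. Med13l, 905 kb from Tbx3, fell by 0.47 and Bcas3, 6.49 kb from Tbx2, by 0.26. The calls of Rbm19, Bcas3 and Cep162 were lost when any of 6, 4 and 3 of the 8 samples was left out, with log2 changes in those cases of 0.28 to 0.35, -0.26 to -0.20 and 0.43 to 0.57, and those of the other 5 genes were kept.

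Markers of other cell types were compared because a sorted culture can hold other cells, and in bulk RNA fewer cells of a type and less RNA per cell cannot be told apart. Of the 7 stromal markers Col1a1 alone passed the threshold and fell by 0.74 on the log2 scale (adjusted p = 0.00383, limma-trend). With the replicate block 6 of the 7 passed, 2 higher and 4 lower, among them Pdgfra (0.24) and Thy1 (-0.41). The counts of all marker lists are to be read against 34.6% of all tested genes without the block and 46.0% with it. Of the 6 blood and macrophage markers Lyz2 alone passed without the block and rose by 0.56 (adjusted p = 0.0220, limma-trend). With the block 4 passed, Lyz2 higher and Csf1r (-0.59), Itgam (-0.46) and Cd68 (-0.28) lower, so that the list did not move in 1 direction. Meox1 acts upstream of muscle in the embryo, and the muscle determination genes Myf5 and Myog had 0 counts in every sample and Myod1 at most 1. The muscle structural genes Acta1 and Des fell by 1.33 and 0.74, and the muscle list summed to 24.8 to 39.6 CPM in hypoxia and 8.72 to 14.0 CPM in normoxia. Nearly all of this was Acta1, with 23.9 to 38.2 and 8.07 to 13.6 CPM, while Des had only 6 to 33 counts. The cartilage genes Sox9 and Col2a1 fell by 0.58 and 0.33. Acan went the other way with a log2 change of 0.29 (adjusted p = 0.521, limma-trend), and Col9a1 did not pass the filter. The cartilage list summed to 906 to 1120 CPM in hypoxia and 710 to 916 CPM in normoxia. Most of this was Col2a1, with 771 to 991 and 617 to 824 CPM. Of 5 pericyte and smooth muscle markers Myh11 alone passed and fell by 1.03, and with the block 4 passed, 3 lower and Rgs5 (0.71) higher, and the list summed to 188 to 245 and 162 to 219 CPM. The 2 endothelial markers tested, Kdr and Tek, had log2 changes of -0.25 (adjusted p = 0.640) and -0.26 (adjusted p = 0.372, both limma-trend). Leaving out single samples ended the calls of Des in 5 of 8 cases, of Col2a1 in 3 and of Lyz2 in 2 (without normoxia replicate 3 or 4, log2 changes 0.41 and 0.53). The part of these differences in the levels of the 10 factors was not tested.

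The genes whose profile over the 8 samples was most like that of Meox1 were found by the root mean square difference of log2 CPM after removing each gene's mean, among the 9394 tested genes with a mean log2 CPM of at least 3. The nearest were S1pr3, a receptor of sphingosine-1-phosphate, at 0.19, Sfrp2, a secreted modulator of Wnt signalling, at 0.26, the amine oxidase gene Aoc3 at 0.26, Selenbp1 at 0.29 and Trim66 at 0.31. Their own log2 changes were -1.56, -1.57, -1.51, -1.71 and -1.30. They were chosen for this likeness, and these values are a description without a test. Replicate 1 was the lowest normoxia sample for all 5, as for Meox1. Aoc3 lies on chromosome 11 like Meox1 (chr11:101330605-101341938).

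**Figure D5:**
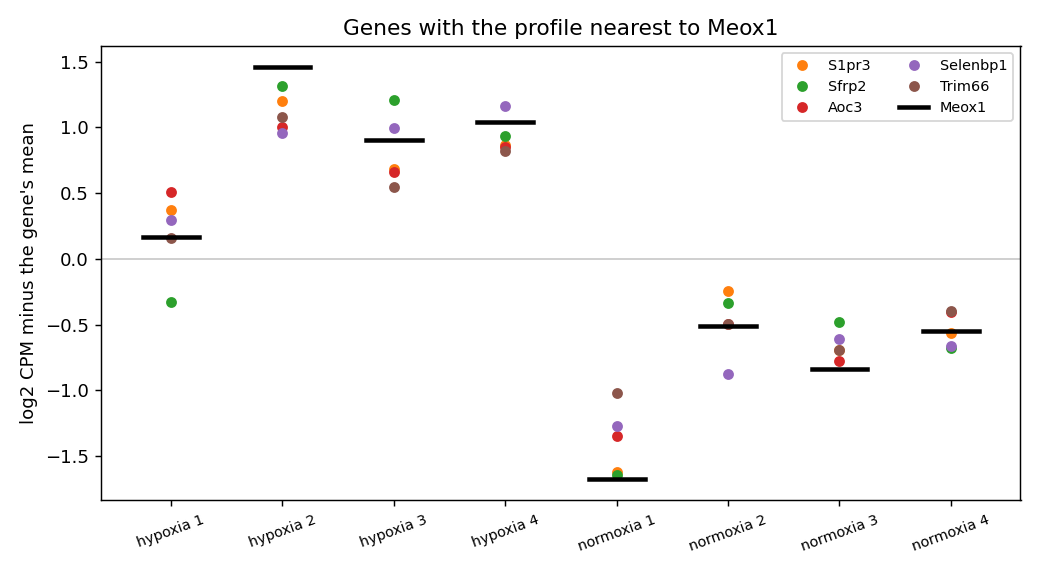
Log2 CPM minus the gene's own mean (vertical axis) in the 8 samples for Meox1 (black bars) and the 5 genes with the nearest profile (coloured points). Normoxia replicate 1 is the lowest sample, with Meox1 at -1.68, and Sfrp2 at -0.33 lies apart from the others in hypoxia replicate 1.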

How the data were processed

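RNA was sequenced from 4 hypoxia and 4 normoxia samples of sorted mouse MSCs. The authors processed single-end reads with zUMIs, STAR and featureCounts on mm10 (GRCm38) with Ensembl annotation and deposited raw counts per gene, whole numbers that are not normalized. Strand setting, and treatment of introns and of reads with several positions, are not given in the sources used here.

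Following the study's methods, genes were filtered with filterByExpr (edgeR 4.0.16, minimum count 5), which kept 14369 of 53465. Also as in the study, the groups were compared with limma-trend (limma 3.58.1, R 4.3.3) at an adjusted p-value threshold of 0.05. The study names no normalization or prior count for this step, and log2 CPM here used TMM factors and a prior count of 3. The fit covered all 8 samples, with p-values adjusted by the Benjamini-Hochberg method. Changes are normoxia minus hypoxia. The study describes the samples of a group as independent biological replicates, which the labels do not state, and p-values measure the spread between these samples. This scale understates changes of low genes. Intervals use 6 degrees of freedom. Symbols, positions, exon lengths and transcripts came from GENCODE M21, of the same assembly (53360 identifiers matched).

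Samples of equal number can be pairs, since the study divided each sorted population between the conditions. Deviations from the group means correlated at 0.47, 0.28, 0.25 and 0.17 for numbers 1 to 4. A fit with the replicate block is therefore given for the 10 genes and for each list whose number of calls it changed. Alternatives were the edgeR quasi-likelihood test, DESeq2 1.42.0, limma-voom, RLE and upper-quartile factors, no filter or a minimum count of 10, a prior count of 1, 2 genes on each side for neighbours, each sample left out and, with the block, a correction for GC content and length (splines with 5 degrees of freedom, 14353 genes). The same correction without the block was added after seeing the data. It also removes true changes that follow these properties. The methods were tested on simulated data.

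The 10 factors, the 5 lists of related genes and the 8 marker lists were chosen with earlier results of these data known. Genes named are the 10 factors, from each list up to 6 genes past the threshold with a mean log2 CPM of at least 1, by size of change, each neighbour past the threshold, and the 5 genes nearest in profile to the factor with the largest change, at a mean log2 CPM of at least 3. Other genes named were chosen after their values were seen. Some genes that meet the rule, and 1 coding stretch, are not reported here.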

Additional observations from a re-analysis of the deposited data

Results flagged for a closer look

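In groups of 4 samples, a sample was picked out where its gap to the nearest other sample, divided by the range of the group, was above Dixon's 95% critical value for 4 samples. Of 22 sets of 4 values examined, 2 were, and chance gives about 1.1. Pitx1 in normoxia had a ratio of 0.9393, taken on log2 CPM as for all genes, because replicate 2 (35.4 CPM) lay below the other 3 samples (44.8 to 45.4 CPM). Replicate 2 was also the lowest hypoxia sample for Pitx1, at 33.3 CPM. The total counts of the hypoxia group had a ratio of 0.9762, because replicate 1 held 25132141 counts. Without that sample the log2 change of Meox1 was -2.02.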

How the results depend on the processing

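Meox1 kept its direction and passed the threshold under all 19 alternatives, with log2 changes from -2.02 without hypoxia replicate 1 to -1.54 without normoxia replicate 1. The number of the 10 factors past the threshold was 1, against 4 with the replicate block, 3 when a correction for GC content and length was added to the block, and 1 to 2 when samples were left out, where leaving out hypoxia replicate 2 added Pitx1. For the genes of the 5 lists the block moved the number from 20 to 33, and adding the correction gave 32 (14 higher and 18 lower, against 8 and 25). It was 14 (without normoxia replicate 1) to 23 (without hypoxia replicate 1) when samples were left out. The number of neighbours past the threshold, 8 of 16, was unchanged by the block, 10 with the block and the correction, 5 to 8 when samples were left out (5 without hypoxia replicate 3, normoxia replicate 3 or normoxia replicate 4), and 15 of 32 with 2 genes on each side. Prrx2 changed sign, to 0.086, with the correction both with and without the block. Among the factors not past the threshold, Tbx3, Tbx5 and Tbx18 changed sign under at least 1 alternative. The causes were not tested. No normalization moved the median log2 change of all tested genes by over 0.1. Each of them scales the samples to a common level, so a shift shared by most genes could not be seen in this way. Depth limits Tbx5, with 4 to 34 counts, and Tbx2, with 18 to 60.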
